A study of Mus musculus with 18 samples.

Results

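The CCR4-NOT complex shortens the poly(A) tails of mRNAs. *Cnot1* is the scaffold on which the other subunits are mounted. The tail is removed by nuclease subunits that come as pairs of paralogs, *Cnot7* or *Cnot8* and *Cnot6* or *Cnot6l*. *Cnot2* and *Cnot3* form the NOT module at the end of the scaffold, *Cnot10* and *Cnot11* form a module of their own, and *Cnot4* is a RING-type E3 ubiquitin ligase that in mammals is not a stable part of the complex. A miRNA bound to Argonaute reaches the complex through the TNRC6 proteins, so these subunits act on the mRNAs that a miRNA holds. Here the subject is the mRNAs of the subunits themselves. The 10 genes *Cnot1*, *Cnot2*, *Cnot3*, *Cnot4*, *Cnot6*, *Cnot6l*, *Cnot7*, *Cnot8*, *Cnot10* and *Cnot11* were found by symbol at 11 of the 52179 loci with a symbol (2 loci carry *Cnot7*). The authors' assembly joins overlapping transcripts into a locus, the unit measured here. Tests were made at loci whose normalized counts averaged 10 or more, which left 15579 loci in all and 10 of the 11 subunit loci.

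RNA was sequenced from Neuro2A cells, a line of mouse neuroblastoma cells, in 6 groups of 3 samples. Cells were transfected with biotinylated *miR-92b* or with a biotinylated scrambled sequence (Scr), each at 25 nM, or were labelled as control, for which the labels name no mimic and which the study describes as untransfected. Each of the 3 was sampled as a nuclear and as a whole cell lysate, from which RNA held by the mimic was collected on streptavidin-coated beads and selected with oligo-dT. All 6 groups share the WT genotype and the 1 cell line, and the transfection reagent is stated for the mimics. The labels do not say that the 3 samples of a group came from separate cultures (the study describes its RT-qPCR check of the pulldown as drawn from repeated experiments, without tying the sequenced samples to them), so that the p-values measure the spread between these samples, which may be technical. The whole cell lysate also holds nuclei, so the 2 compartments are not separate fractions. The libraries held 3752991 to 22920038 reads on loci with a symbol (median 4301579 in nuclear and 6634894 in whole cell samples), and 53 to 10951 reads on a tested subunit locus. The control samples gave libraries as well, so that a count does not by itself show that an mRNA was held by a mimic.

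The labelled cell type and compartments were checked with marker genes. The neuroblastoma markers *Phox2a*, *Hand2*, *Gata3* (joined with *9230102O04Rik* in 1 locus) and *Isl1* had at least 86 reads in every sample. Among markers of glia, blood cells and fibroblasts, *Aqp4*, *Ptprc* and *Col1a2* had at most 3 reads in a sample, and *Csf1r*, *Col1a1* and *Gfap* at most 106, 48 and 180 reads. Of 4 nuclear lncRNAs, *Malat1* and *Neat1* were higher in nuclear samples (log2 fold changes of 1.08 and 1.06, limma adjusted p = 1.82e-05 and 4.50e-06), *Meg3* was not called (1.65, adjusted p = 0.145) and *Miat* had at most 3 reads in a sample. The 3 cytoplasmic mRNAs *Gapdh*, *Actb* and *Eef1a1* were lower (-2.35, -2.15 and -3.53). Nuclear control sample 3 and nuclear Scr samples 2 and 3 stood apart. They held reads on 13417 to 13991 of the tested loci against 15432 to 15527 in the other 6 nuclear samples, and their median correlation with the nuclear samples was 0.800 to 0.832 against 0.933 to 0.944. Among the whole cell samples *miR-92b* sample 3 had the fewest tested loci with reads (12976, the others 13569 to 15203) and the lowest median correlation (0.769, the others 0.776 to 0.848). It is counted below with those nuclear samples as standing apart, although its correlation lay close to that of the next whole cell sample. Results that lean on 1 of these 4 samples are given with and without it. Leaving out all 4 keeps 1 nuclear Scr sample, so that a fit without them takes the spread of that group from the others.

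The miRNA acts through its seed, bases 2 to 8, which pair with a target mRNA. The mature *miR-92b-3p* of the mouse (RefSeq, GRCm38.p6, chr3:89227126-89227147, minus strand) is shown with 2 relatives, and the capitals mark the seed that all 3 have in common. The study uses the name *miR-92b* for the 3p arm.
miR-92b-3p: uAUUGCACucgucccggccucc
miR-92a-3p: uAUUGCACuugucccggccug
miR-25-3p: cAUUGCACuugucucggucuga
The same seed is carried by miR-32-5p, miR-363-3p and miR-367-3p.

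Matches to this seed were searched on the sense strand of the protein-coding transcripts of each gene in GENCODE M21 (GRCm38). Transcripts without an annotated end of the coding sequence were left out. A gene was counted if any of its transcripts held the match. The match to bases 2 to 8, GTGCAAT, was in the 3′ UTR of 0 of the 10 subunit genes, against 6.93% of 21022 protein-coding genes and 8.05% of the 11430 at tested loci. The match to bases 2 to 7 followed by an A, TGCAATA, which overlaps GTGCAAT by 6 bases, was in the 3′ UTR of *Cnot2* and *Cnot4*, 2 of 10 genes, against 9.44% of all genes and 10.4% of those at tested loci. Upstream of the stop codon GTGCAAT was found in 3 of 10 genes, against 5.94% and 6.17%, in coding sequence each time, and *Cnot6* and *Cnot6l* are among them. The stretches of these 4 genes are shown because they are matches against which the pulldown values below can be read. The capitals mark the match.
*Cnot2*, 3′ UTR, chr10:116485417-116485423, minus strand: ggaggtgtgcatggaTGCAATAt
*Cnot4*, 3′ UTR, chr6:35045585-35045591, minus strand: atattatggcctaacTGCAATAt
*Cnot6*, coding sequence, chr11:49682057-49682063, minus strand: agcatgttgatggctGTGCAATa
*Cnot6l*, coding sequence, chr5:96091602-96091608, minus strand: agcatgtggatggttGTGCAATa
The coordinates are those of the capitals. The paralogs *Cnot6* and *Cnot6l* have their match at nearly the same distance from the stop codon, 827 and 821 bases before it, and 21 of the 23 bases printed are identical between them. In both the match is followed by an A. A match is a sequence in the annotated mRNA and does not show that the miRNA binds there.

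All 10 mRNAs were recovered from both compartments, and their levels spanned more than a factor of 10. Levels are given first as FPKM, the authors' value per length of the assembled transcripts and per library size. The scaffold *Cnot1* (chr8:95719451-95807464, minus strand), at GENCODE M21 positions on GRCm38, had a median FPKM of 117 over the 18 samples, with a range of 70.3 to 159.8. The nuclease *Cnot7* (chr8:40492540-40515847) had a median of 113 and a range of 75.6 to 199.9. These values could not be ordered, since *Cnot1* was the higher of the 2 in 8 of 18 samples.

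The other nuclease subunits came at lower levels. *Cnot6* (chr11:49671503-49712723) had a median FPKM of 59.3 (45.3 to 90.9) and was below *Cnot7* in 18 of 18 samples. Its paralog *Cnot6l* (chr5:96070333-96164171) had a median of 31.9 (20.8 to 56.7) and was below *Cnot6* in 17 of 18 samples. *Cnot8* (chr11:58104153-58118594), the paralog of *Cnot7*, had a median of 12.3. The median ratio of *Cnot7* to *Cnot8* was 10.9 in FPKM, which depends on the assembled lengths given below, and 4.73 in normalized counts. In FPKM *Cnot8* was below *Cnot7* in 17 of 18 samples. The exception was nuclear Scr sample 2, where the FPKM of *Cnot8* was 489 against 3.02 to 17.3 in the other 17 samples, while its normalized count there was 445 and that of the others 103 to 376.

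Of the remaining subunits, *Cnot2* (chr10:116485161-116581511) had a median FPKM of 27.0 (11.4 to 39.6), *Cnot4* (chr6:35022065-35133724) of 20.4 (7.27 to 31.1) and *Cnot3* (chr7:3645268-3661109, in 1 locus with *Mir3572*) of 13.6 (6.73 to 22.3). *Cnot10* (chr9:114585878-114640184) and *Cnot11* (chr1:39534992-39546889) had the lowest medians, 8.89 (5.88 to 16.5) and 7.93 (4.98 to 21.3). *Cnot3*, *Cnot8* and *Cnot11* lie on the plus strand and the other 7 genes on the minus strand. Neighbours in this order had overlapping ranges throughout. The order of *Cnot3* and *Cnot8* was not the same across samples (*Cnot3* higher in 8 of 18), and *Cnot10* was above *Cnot11* in 12 of 18.

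**Figure D1:**
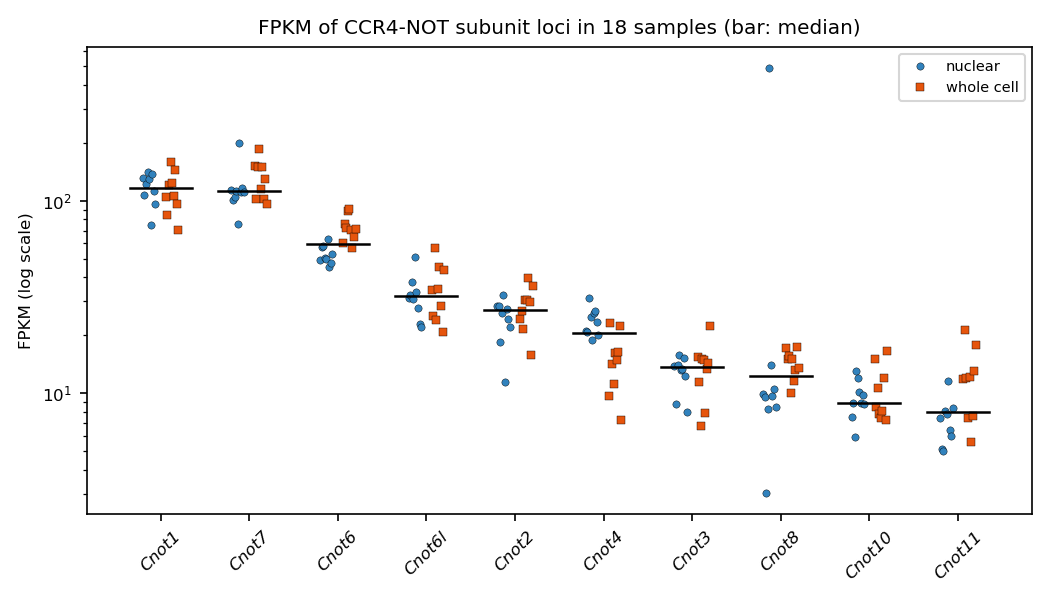
FPKM (log scale) of the 10 tested subunit loci in the 9 nuclear (circles) and 9 whole cell samples (squares), ordered by the median, which the bar marks. *Cnot1* and *Cnot7* lie near 100, *Cnot10* and *Cnot11* near 10, and 1 nuclear value of *Cnot8* lies at 489.

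The FPKM depends on the transcript length the authors' assembly gave each locus. The length implied by the ratio of normalized count to FPKM, scaled in each sample to 354 loci with at least 50 reads and annotated transcripts of at least 1000 nucleotides, had a median absolute error of 0.30 on the log2 scale at those loci. For *Cnot4* it was 15017 nucleotides in nuclear and 15821 in whole cell samples (medians), 3.81 and 4.01 times its longest annotated transcript of 3941 nucleotides. For *Cnot1* it was 2529 and 3293 nucleotides, 0.301 and 0.393 times the annotated 8390, and for *Cnot7* 1268 and 1399 nucleotides, 0.326 and 0.360 times the annotated 3888. In nuclear Scr sample 2 the implied length of *Cnot8* was 110.2 nucleotides, against a nuclear median of 3536.

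The order of the subunits therefore changed with the length used. Per kilobase of the longest annotated transcript, *Cnot4* had the highest median normalized count of the 10, 616 (228 to 967), in place of the sixth place by FPKM. This value divides by the annotated 3941 nucleotides, where the implied lengths were 15017 and 15821, and a longer divisor would lower it. *Cnot6* followed with 399, *Cnot7* with 332 and *Cnot1* with 324, and each was below the one before it in 14, 14 and 12 of 18 samples. The longest annotated transcript was of any type. The longest protein-coding one was shorter for *Cnot7* (2982 against 3888 nucleotides), *Cnot10* (2853 against 4866), *Cnot3* (2822 against 4333), *Cnot4* (3473 against 3941) and *Cnot2* (2800 against 2955). A shorter divisor would raise their values, so this order holds for the lengths used. The 3 apart from *Cnot4* were above *Cnot2* (190.1) in their medians, and *Cnot1* was above *Cnot2* in 18 of 18 samples, with ranges that did not overlap. *Cnot8* had a median of 133 on this scale, against the 332 of *Cnot7*. The lowest medians on this scale were again those of *Cnot11* and *Cnot10* (62.7 and 57.5).

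Nuclear and whole cell samples were compared to see in which compartment the subunit loci had higher counts. Of the 10 subunits studied, *Cnot4* was the 1 that passed the threshold. It was 1.71 times as high in nuclear as in whole cell samples, and the other 9 subunits differed by at most 0.26 on the log2 scale, with no call. *Cnot9*, a subunit outside the 10 that was named after its values were seen, was called lower in nuclear samples (log2 fold change -0.84). Its values are given below with the partners of the complex. Across all tested loci 31.0% were called in this comparison (15.3% or 2377 higher and 15.8% or 2454 lower in nuclear samples; with FPKM values 1389 higher and 2515 lower), so that 1 call among 10 subunits was fewer than that share. The median log2 fold change of the subunits was -0.057 and that of all tested loci 0.14.

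The normalized counts of *Cnot4* were 2839, 2813 and 3473 in nuclear control samples 1, 2 and 3, 3192, 2339 and 2513 in nuclear Scr and 3812, 2653 and 2639 in nuclear *miR-92b* samples. In whole cell samples they were 1568, 1723 and 1559 for control, 1501, 1981 and 1888 for Scr and 2075, 2515 and 897 for *miR-92b*. Within each treatment all 3 nuclear samples lay above all 3 whole cell samples. A separation in 1 direction or the other was found for 38.1% of all tested loci in control, 22.3% in Scr and 36.2% in *miR-92b* samples. No other subunit separated in control or *miR-92b* samples. In Scr samples *Cnot2* and *Cnot6* lay lower and *Cnot10* higher in all 3 nuclear samples than in the whole cell samples. Their log2 fold changes were -0.49, -0.15 and 0.55, with no call. The nuclear Scr values of *Cnot2* were 523, 543 and 308, the last from sample 3, which stood apart. Over all 18 samples the ranges of *Cnot4* overlapped, as did those of each of the other 9 subunits (7.32% of all tested loci did not overlap). For *Cnot4*, nuclear Scr sample 2 lay below whole cell *miR-92b* sample 2.

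The means of *Cnot4* were 2919 ± 481 (SD, n = 9) in nuclear and 1745 ± 450.4 (SD, n = 9) in whole cell samples. In such bulk samples more molecules per cell and more cells cannot be told apart. The counts are scaled to each library, so that a higher nuclear count need not mean more *Cnot4* RNA per nucleus. The implied length of the locus was 15017 nucleotides in nuclear and 15821 in whole cell samples (medians), against 3941 for the longest annotated transcript. Whether all its reads came from the annotated *Cnot4* mRNA was not tested. The log2 fold change was 0.77 (standard error 0.15, 95% interval 0.47 to 1.08, limma adjusted p = 3.52e-04). By treatment it was 0.91 in control (limma adjusted p = 0.0261), 0.58 in Scr (adjusted p = 0.187) and 0.84 in *miR-92b* samples (adjusted p = 0.0332), against 9.85%, 5.17% and 13.3% of all tested loci called. Whether the effect differs between treatments was not tested for control. For *miR-92b* and Scr the difference between the 2 effects was 0.26 (standard error 0.37, adjusted p = 0.870).

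The call of *Cnot4* over the 3 treatments was retained under all 11 alternatives and with each of the 18 samples left out, with log2 fold changes of 0.62 to 0.87. Whole cell *miR-92b* sample 3, the one with reads on the fewest tested loci, held the lowest count of *Cnot4* (897), and without it the log2 fold change was 0.62 (adjusted p = 1.96e-05). Without all 4 samples that stood apart it was 0.68 (adjusted p = 5.95e-05). The call within single treatments was less stable. In control samples it was lost without nuclear control sample 2 or 3 or without any of the 3 whole cell control samples, and in *miR-92b* samples without any of the 3 nuclear samples or without whole cell sample 3. On the FPKM scale *Cnot4* had 18.9 to 31.1 (median 23.4) in nuclear and 7.27 to 23.1 (median 14.9) in whole cell samples and was called as well over the 3 treatments (adjusted p = 0.0244), but in none of them alone.

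**Figure D2:**
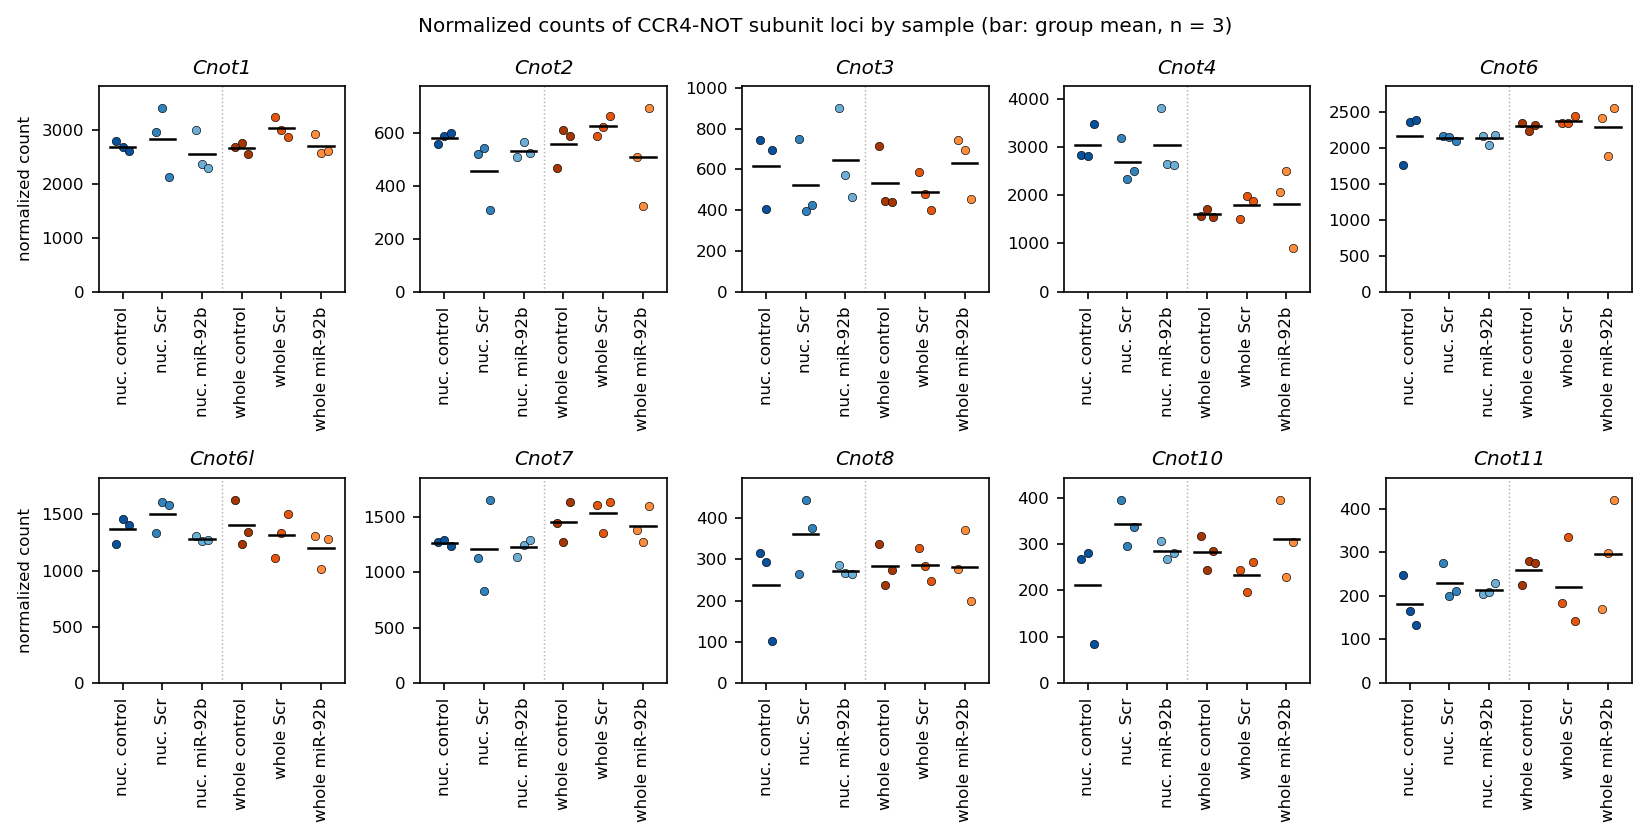
Normalized counts (linear axis from 0) of the 10 tested subunit loci in every sample, by group, with the mean of the 3 samples as a bar. Nuclear groups are blue and whole cell groups orange; in *Cnot4* the nuclear means are 2681 to 3042 and the whole cell means 1617 to 1829, and in no other subunit do the nuclear and whole cell samples separate in all 3 treatments.

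None of the 4 nuclease subunits was called between compartments on the count scale. *Cnot7*, one of the catalytic subunits of the Caf1 type, had 834 to 1656 (median 1246) in nuclear and 1275 to 1637 (median 1445) in whole cell samples. Its log2 fold change was -0.26 (95% interval -0.50 to -0.027), with an unadjusted p-value of 0.0304 and no call after adjustment (limma adjusted p = 0.0830). Nuclear Scr sample 3 held the highest nuclear value, 1656. Without it the difference was -0.35 and passed the threshold (adjusted p = 0.0119). *Cnot8* had 103 to 445 (median 285) in nuclear and 199 to 371 (median 276) in whole cell samples, and its log2 fold change was -0.032 (95% interval -0.45 to 0.39).

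*Cnot6* and *Cnot6l*, the catalytic subunits of the Ccr4 type, gave small differences of opposite sign. *Cnot6* had 1772 to 2391 (median 2174) in nuclear and 1893 to 2562 (median 2355) in whole cell samples, with a log2 fold change of -0.11 (95% interval -0.30 to 0.076). *Cnot6l* had 1233 to 1607 (median 1332) and 1009.5 to 1631 (median 1307), a log2 fold change of 0.090 (95% interval -0.12 to 0.30). Neither was called, and the ranges of both overlapped between compartments. In FPKM, *Cnot6* had 52.7 ± 5.79 in nuclear and 72.4 ± 11.5 in whole cell samples (SD, n = 9 each) and was called lower in nuclear samples (-0.45 on the log2(FPKM + 0.1) scale, limma adjusted p = 0.00492).

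The share of the 2 paralogs was compared directly, as the log2 ratio of normalized counts within each sample, which does not depend on the scaling between samples. A ratio of counts is not a ratio of levels, because the transcripts differ in length, and how the counting divided reads that match both paralogs was not tested. The locus of *Cnot6* also carries *Gm12191*, whose share of the reads was not tested. For *Cnot6* to *Cnot6l* the ratio was 0.52, 0.69 and 0.77 in nuclear control, 0.71, 0.42 and 0.42 in nuclear Scr and 0.73, 0.70 and 0.78 in nuclear *miR-92b* samples. In whole cell samples it was 0.53, 0.86 and 0.79 for control, 1.07, 0.82 and 0.71 for Scr and 0.89, 0.91 and 1.0 for *miR-92b*. The nuclear values lay lower, with 9 values between 0.42 and 0.78 against 0.53 to 1.07, and the 2 ranges overlapped.

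The mean ratio of *Cnot6* to *Cnot6l* was 0.64 ± 0.14 (SD, n = 9) in nuclear and 0.84 ± 0.16 (SD, n = 9) in whole cell samples, a difference of -0.20 (two-sided exact permutation test within treatments, 8000 permutations, p = 0.0095, adjusted over the 2 ratios 0.019). By treatment the difference was -0.065 in control, -0.35 in Scr and -0.20 in *miR-92b* samples. The call rested on few samples. The adjusted p of the exact permutation test was 0.054 without nuclear control sample 1, 0.0545 without whole cell control sample 2 and 0.175 without the 4 samples that stood apart, where the difference was -0.15. With FPKM values the difference was -0.36 (exact permutation test, adjusted p = 0.246). For *Cnot7* to *Cnot8* the mean ratio was 2.15 ± 0.68 (SD, n = 9) in nuclear and 2.38 ± 0.36 (SD, n = 9) in whole cell samples, a difference of -0.23 that did not pass the threshold (exact permutation test, adjusted p = 0.388). Without nuclear control sample 3, where the ratio was 3.58, the difference was -0.40 (exact permutation test, adjusted p = 0.0485).

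**Figure D3:**
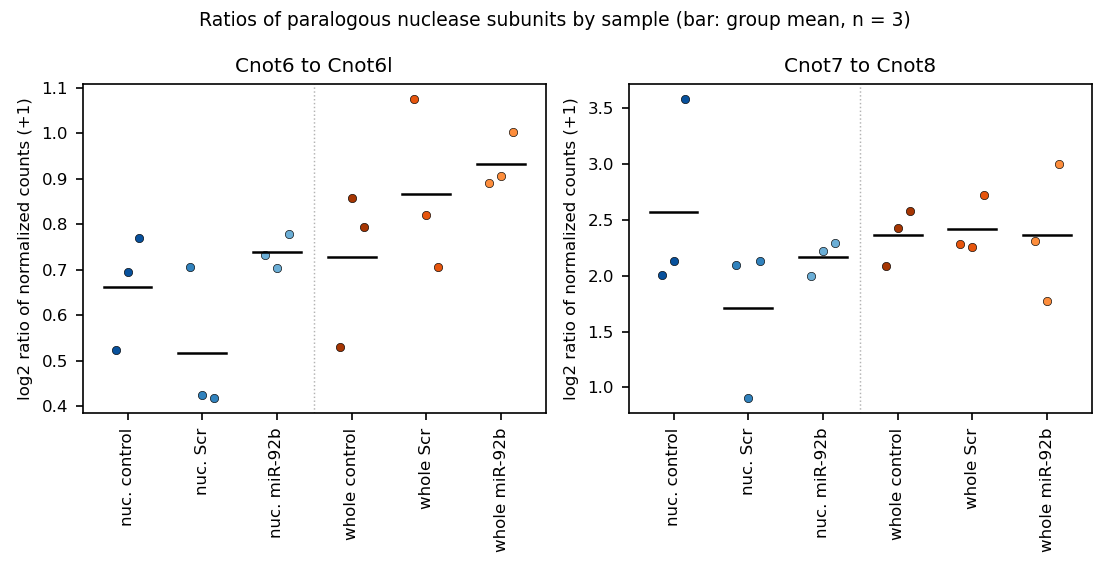
Log2 ratio of the normalized counts of *Cnot6* to *Cnot6l* (left) and of *Cnot7* to *Cnot8* (right) in every sample, by group, with the mean of the 3 samples as a bar; the vertical axes do not start at 0. For *Cnot6* to *Cnot6l* the nuclear values reach 0.78 and the whole cell values 1.07.

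For the scaffold and the non-catalytic modules no difference between compartments passed the threshold on the count scale. *Cnot1* had 2690.2 ± 402 in nuclear and 2799 ± 229 in whole cell samples (SD, n = 9 each), with a log2 fold change of -0.067 (95% interval -0.27 to 0.14). In the NOT module *Cnot2* had 524 ± 86.7 and 564 ± 114 (SD, n = 9 each) and *Cnot3* 595 ± 185 and 551 ± 135 (SD, n = 9 each), log2 fold changes of -0.096 (95% interval -0.39 to 0.20) and 0.087 (95% interval -0.27 to 0.45). *Cnot10* had 279 ± 83.7 and 275 ± 58.5 (SD, n = 9 each), a log2 fold change of -0.047 (95% interval -0.47 to 0.37). Its lowest value, 83.9 in nuclear control sample 3, came from 53 reads. *Cnot11* had 208 ± 42.1 and 259 ± 88.4 (SD, n = 9 each), a log2 fold change of -0.26 (95% interval -0.69 to 0.16) that was not called on counts and was called on the FPKM scale (-0.65, limma adjusted p = 0.0467). *Cnot8*, *Cnot10* and *Cnot11*, the subunits with the fewest reads, had the widest intervals. The 0.77 of *Cnot4*, the largest of the 10 log2 fold changes, lies outside each of them, but a difference between loci was not tested.

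**Figure D4:**
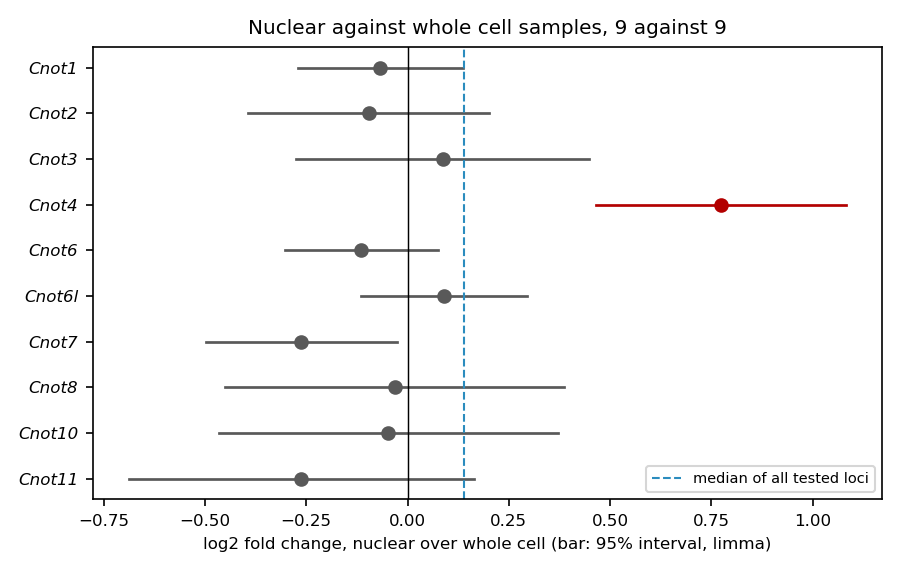
Log2 fold change of nuclear over whole cell samples for the 10 tested subunit loci (points) with the 95% interval from limma (lines), and the median of all 15579 tested loci as a dashed line at 0.14. The interval of *Cnot4* (0.47 to 1.08) lies above 0 and *Cnot4* is the 1 locus drawn in red, for an adjusted p below 0.05.

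The comparison of *miR-92b* with Scr asks which mRNAs were collected with the miRNA beyond the scrambled sequence. For the CCR4-NOT subunits no difference passed the threshold in either compartment. In nuclear samples 0 of 10 subunits were called by limma and 0 had an unadjusted p-value below 0.05. Of all 15579 tested loci 0% were called and 687 had an unadjusted p-value below 0.05 (edgeR 0 calls, DESeq2 1). In whole cell samples 0 of 10 subunits were called and 0 had an unadjusted p-value below 0.05, against 0.00642% of all tested loci called and 1515 with an unadjusted p-value below 0.05 (edgeR 1 call, DESeq2 176). Neither edgeR nor DESeq2 called a subunit. For the difference between the compartments 0 of 10 subunits were called, with 0.00642% of all tested loci. The subunits had a median log2 fold change of -0.046 in the nuclear comparison (all tested loci 0.11) and of -0.078 in the whole cell comparison (all tested loci -0.014).

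The genes shown above with a seed match were read individually, followed by the other subunits. *Cnot6l*, with the match in its coding sequence, gave 1332, 1607 and 1579 normalized counts in nuclear Scr samples and 1311, 1258 and 1274 with *miR-92b*. All 3 *miR-92b* values lay below the 3 Scr values, a separation that 10.1% of all tested loci showed in 1 direction or the other, and the nuclear control samples held 1233, 1462 and 1402, a range that takes in the *miR-92b* values. The log2 fold change was -0.23 (95% interval -0.58 to 0.13, limma adjusted p = 1.0). The Scr values of 1607 and 1579 came from nuclear Scr samples 2 and 3, which stood apart. Without the 4 samples that stood apart, which leaves 1 nuclear Scr sample, the nuclear log2 fold change of *Cnot6l* was -0.056. The whole cell values overlapped, with 1307, 1009.5 and 1278 for *miR-92b* and 1114, 1335 and 1503 for Scr, and their log2 fold change was -0.14 (95% interval -0.49 to 0.22).

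*Cnot6*, with the match at the corresponding position, had 2177, 2051 and 2188 in nuclear *miR-92b* and 2174, 2154 and 2108 in nuclear Scr samples. These groups overlapped, and the log2 fold change was -0.0053 with a 95% interval of -0.33 to 0.32. The whole cell samples held 2422, 1893 and 2562 for *miR-92b* and 2348, 2356 and 2454 for Scr, a log2 fold change of -0.069 (95% interval -0.40 to 0.26).

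*Cnot2* and *Cnot4* carry the match to bases 2 to 7 followed by an A in the 3′ UTR. *Cnot2* had 511, 565 and 523 in nuclear *miR-92b* and 523, 543 and 308 in nuclear Scr samples. The log2 fold change was 0.26 (95% interval -0.25 to 0.78), and it was -0.00084 without nuclear Scr sample 3. The whole cell values were 508, 326 and 695 for *miR-92b* and 589, 622 and 665 for Scr, a log2 fold change of -0.36 (95% interval -0.88 to 0.15). The difference between its 2 effects was 0.62 (standard error 0.35, unadjusted p-value 0.0902, limma adjusted p = 0.701). For *Cnot4* the log2 fold change was 0.17 (95% interval -0.37 to 0.70) in nuclear and -0.087 (95% interval -0.62 to 0.45) in whole cell samples, and without whole cell *miR-92b* sample 3 the latter was 0.36.

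Among the other subunits, *Cnot8* had 285, 267 and 264 in nuclear *miR-92b* and 264, 445 and 376 in nuclear Scr samples. Its log2 fold change was -0.38 in nuclear samples (95% interval -1.10 to 0.35) and -0.055 in whole cell samples (95% interval -0.78 to 0.67). With FPKM values the nuclear log2 fold change of *Cnot8* was -2.0, in which nuclear Scr sample 2 with its FPKM of 489 takes part. The 5 subunits without either match were not called. Their log2 fold changes with *miR-92b* over Scr lay between -0.26 for *Cnot10* and 0.31 for *Cnot3* in nuclear samples, and between -0.17 for *Cnot1* and 0.43 for *Cnot11* in whole cell samples. Each 95% interval included 0. The narrowest intervals were those of *Cnot6*, *Cnot1* and *Cnot6l*, which in nuclear samples end at -0.33, -0.49 and -0.58 on the lower side and at 0.32, 0.22 and 0.13 on the upper side. The widest were those of *Cnot11*, *Cnot10* and *Cnot8*, which in nuclear samples end at -0.83, -0.98 and -1.10 on the lower side.

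**Figure D5:**
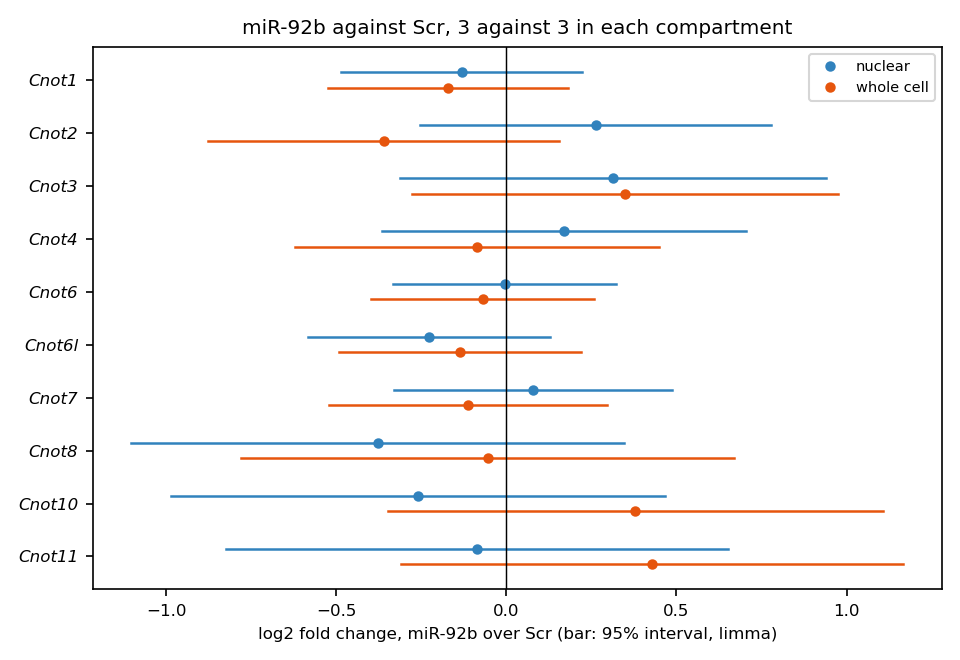
Log2 fold change between *miR-92b* and Scr samples (positive where higher with *miR-92b*) for the 10 tested subunit loci in nuclear (blue) and whole cell samples (orange), with the 95% interval from limma. Every interval includes 0, and the points lie between -0.38 and 0.43.

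Against control samples, which both mimics share, 0 of 10 subunits were called in any of the 4 comparisons by limma, edgeR or DESeq2 (*miR-92b* or Scr, nuclear or whole cell). Of all tested loci 0% were called with *miR-92b* and with Scr in nuclear samples, 0.00642% with *miR-92b* and 0% with Scr in whole cell samples. In nuclear samples with Scr, *Cnot10* had 395, 296 and 337 against 269, 279.7 and 83.9 in control, and all 3 Scr values lay above the control values (8.66% of all tested loci were apart in this way in either direction). *Cnot2* separated in the other direction, with 523, 543 and 308 for Scr and 559, 589 and 599.6 for control. *Cnot8* had 264, 445 and 376 with Scr against 315, 293 and 103 in control. Nuclear control sample 3, which stood apart, was the lowest nuclear sample for *Cnot10* and *Cnot8*. Without that sample the log2 fold changes, 0.88 and 0.74 with it, were 0.31 for *Cnot10* and 0.22 for *Cnot8*, with unadjusted limma p-values of 0.292 and 0.486. *Cnot2* had -0.39, and -0.13 without nuclear Scr sample 3. Over all samples the unadjusted limma p-values were 0.0202 for *Cnot10* and 0.0468 for *Cnot8*, the only ones below 0.05 among the subunits in the 4 comparisons, and neither passed the adjustment (edgeR and DESeq2 gave 0 below 0.05). In whole cell samples *Cnot1* lay higher in all 3 Scr samples (3243, 2994 and 2868) than in control (2681, 2760.0 and 2555). A separation in 1 direction or the other was found for 13.5% of all tested loci in this comparison. The log2 fold change of *Cnot1* was 0.19 (95% interval -0.17 to 0.54).

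The partners of the complex in mRNA decay, 50 genes of deadenylation, decapping, poly(A) binding and miRNA effector proteins, were examined beside the subunits. They had 52 loci, of which 49 were tested. Between compartments 6 were higher and 15 lower in nuclear samples and 28 were not called, with a median log2 fold change of 0.031 (31.0% and 0.14 for all tested loci). The 4 highest called were *Gigyf2*, *Ago3*, *Pan2* and *Noct*. *Gigyf2*, a partner of the cap-binding repressor *Eif4e2*, had a log2 fold change of 0.52 (limma adjusted p = 0.00232). The Argonaute gene *Ago3* had 0.50 (limma adjusted p = 0.0191). *Pan2*, the nuclease of the other major deadenylase, had 0.40 (limma adjusted p = 0.0204), and *Noct*, a relative of *Cnot6*, had 0.39 (limma adjusted p = 0.0493). The normalized counts of *Noct* were 53703 to 84845 in nuclear and 46069 to 56340 in whole cell samples.

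The 4 lowest called were genes of poly(A) binding and of the decapping pathway. *Pabpc1*, the main cytoplasmic poly(A)-binding protein, had 1008.4 to 1498 in nuclear and 3634 to 8584 in whole cell samples, with a log2 fold change of -2.10 (limma adjusted p = 7.19e-11). *Pabpc4* followed with -1.70 (adjusted p = 5.88e-09), *Paip1*, which binds *Pabpc1*, with -1.45 (adjusted p = 1.65e-06), and *Ddx6*, the helicase that the complex recruits, with -0.94 (adjusted p = 6.07e-05). *Cnot9*, a further subunit that is not among the 10 genes and is named here after its values were seen, had 208 to 356 in nuclear and 297 to 691 in whole cell samples, with a log2 fold change of -0.84 (adjusted p = 1.97e-04). Of the same 49 loci, 0 were called with *miR-92b* against Scr in either compartment by limma, edgeR or DESeq2. Unadjusted p-values below 0.05 were found at 0 loci in nuclear and 8 loci in whole cell samples (limma).

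The second locus named *Cnot7* (XLOC_143168) held few reads. It had 1, 38 and 2 reads in nuclear *miR-92b* samples, 6 and 14 in whole cell control samples 1 and 3, and 0 in the other 13 samples. Its mean normalized count was 1.93, and it was not tested. The authors list it with the same region as the tested *Cnot7* locus and the loci of *Zdhhc2*, *Vps37a* and *Mtmr7*. The FPKM of this locus reached 77.5 with 38 reads, and its implied length was 15 to 19 nucleotides, so its FPKM was not added to that of the tested locus.

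The 10 subunits did not rise and fall together over the 18 samples. The correlation of each with the mean log2 count of the 10, in which it takes part, was highest for *Cnot10* (Pearson r = 0.81) and *Cnot8* (r = 0.62) and between -0.23 and 0.34 for the other 8. These values lean on nuclear control sample 3, which stood apart and held the lowest mean and the lowest counts of *Cnot10* and *Cnot8*. Without it r was 0.54 for *Cnot10*, 0.11 for *Cnot8* and highest for *Cnot3* (0.74). Outside the list *Cptp* (r = 0.85), *Rps13-ps4* joined with *Taf1c* (0.80), *Mepce* (0.79), *Itpkc* (0.79) and *Gm26848* (0.79) had the highest correlations with that mean over 18 samples that share libraries and depth. Without nuclear control sample 3 they had 0.70, 0.69, 0.51, 0.44 and 0.52, and the 5 highest loci were others, led by *Prkab2* (0.80). Together the subunits took 0.164% to 0.235% of the reads on loci with a symbol. The lowest share was that of whole cell *miR-92b* sample 3 and the highest that of nuclear *miR-92b* sample 1.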

How the data were processed

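Libraries were made from RNA that streptavidin-coated beads pulled down from nuclear or whole cell lysate of Neuro2A cells (6 groups of 3 samples, grouped by their labels). Per the labels the reads were prepared with bcl2fastq 2.17 and Trimmomatic 0.30, and the authors aligned them with TopHat2 to GRCm38 and assembled and quantified loci with Cufflinks and Cuffdiff (versions: not given in the sources used here). Deposited were 1 table of normalized counts, a signal per locus in which reads are divided by a size factor for each sample, and 1 table of FPKM. Whole reads were recovered from the normalized counts: 99.95% of the 635205 values above 0 were whole within 0.02 reads. The comparison tables the authors deposited hold group FPKM, fold changes, p-values and q-values and were not used. All tests left out the loci with no symbol (4.51% to 15.3% of the reads).

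Loci whose normalized counts averaged 10 or more were tested on log2(count + 1) with limma 3.58.1 (trend) in R 4.3.3, 1 model over the 6 groups, as a two-sided test with Benjamini-Hochberg adjustment over the 15579 loci and a threshold of 0.05. A fold change on this scale understates that of low loci. FPKM was tested on log2(FPKM + 0.1). The ratios of paralogs were tested with exact permutations of the compartments within treatments (smallest p = 0.00025). The code was tested on simulated data. The alternatives were pseudocounts of 8 and 0.5, a minimum of 50 or none, FPKM, rescaling to the same median, a model of the compared groups only, a replicate block, DESeq2 1.42.0, each sample left out and, chosen after seeing the data, edgeR 4.0.16, control and Scr samples only, and samples that stood apart left out together or singly. Beside the 10 subunits the text names the 4 called genes of the decay list with the highest and the 4 with the lowest log2 fold change between compartments, and the 5 loci most correlated with the subunits' mean; the subunits and lists were chosen with earlier results of these data known. Gene positions are from GENCODE M21 (GRCm38), miRNA sequences from RefSeq. Some marker genes and 1 sequence match are not reported here. Counting error alone does not cover differences between cultures.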

Additional observations from a re-analysis of the deposited data

Results flagged for a closer look

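For each of the 10 tested subunit loci the lowest and highest of the 9 samples of a compartment were compared with their neighbours, in counts and in FPKM (40 groups of 9 samples). In 5 groups 1 sample lay apart by more than Dixon's critical ratio of 0.493; chance gives about 5% of groups. The normalized count of *Cnot2* was 308 in nuclear Scr sample 3, with 511 as the nearest other value. The normalized count of *Cnot10* was 83.9 in nuclear control sample 3, with 267 as the nearest. The normalized count of *Cnot6* was 1893 in whole cell *miR-92b* sample 2, with 2245 as the nearest. The FPKM of *Cnot7* was 199.9 in nuclear Scr sample 3, with 116 as the nearest, and that of *Cnot8* was 489 in nuclear Scr sample 2, with 14.0 as the nearest. Of these 5 values 4 came from the 3 nuclear samples that held reads on fewer loci, and the part of those samples in the values was not tested.

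The second locus named *Cnot7*, which entered no comparison, held 38 reads in nuclear *miR-92b* sample 2, the deepest nuclear library, and 0 in the 3 nuclear control samples. Whole cell control samples 1 and 3 held 6 and 14 reads at this locus.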

How the results depend on the processing

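*Cnot4* was called between compartments over the 3 treatments under each of the 11 alternatives and with each sample left out. With FPKM 3 subunits were called in place of 1 (*Cnot4*, *Cnot6* and *Cnot11*), and leaving out single samples gave 1 to 2, the second being *Cnot7*. The call within control samples (1 subunit) was 0 without a filter and with FPKM and 0 to 1 with single samples left out. That within *miR-92b* samples (1) was 0 without a filter, with FPKM, with only the compared groups in the model and without the 4 samples that stood apart, and 0 to 1 with single samples left out. Within Scr samples 1 subunit, *Cnot4*, was called without those 4 samples, which sets 1 nuclear Scr sample against 3 and assumes that it varies like the other groups, so that this call adds no support. The difference in the ratio of *Cnot6* to *Cnot6l* was -0.36 with FPKM and -0.15 without the 4 samples, no longer past the threshold, and -0.24 to -0.17 with single samples left out. For *Cnot7* to *Cnot8* single samples gave -0.40 to -0.096. The cause of these changes was not tested.

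Differences that were not called changed sign as follows. Between compartments, FPKM gave 0.076 for *Cnot1*, -0.037 for *Cnot3* and -0.086 for *Cnot6l*. Rescaling to the same median gave 0.021 for *Cnot1*, 0.056 for *Cnot8* and 0.041 for *Cnot10*, DESeq2 gave 0.028 for *Cnot8* and 0.016 for *Cnot10*, and edgeR 0.041 and 0.031. Without the 4 samples *Cnot2* had 0.061 and *Cnot10* 0.21. With single samples left out *Cnot3* ranged from -0.0097 to 0.18, *Cnot8* from -0.13 to 0.14 and *Cnot10* from -0.15 to 0.14. For *miR-92b* against Scr in nuclear samples, FPKM gave 0.039 for *Cnot1*, -0.30 for *Cnot3* and -0.081 for *Cnot7*, rescaling 0.020 and edgeR 0.038 for *Cnot6*, and leaving out the 4 samples, which sets the 3 *miR-92b* samples against 1 Scr sample, -0.27 for *Cnot3*, -0.095 for *Cnot4* and 0.044 for *Cnot8*. Single samples left out gave -0.33 to 0.017 for *Cnot1*, -0.00084 to 0.41 for *Cnot2*, -0.0062 to 0.30 for *Cnot4*, -0.022 to 0.025 for *Cnot6*, -0.16 to 0.33 for *Cnot7* and -0.18 to 0.053 for *Cnot11*. In whole cell samples *Cnot4* had 0.026 with DESeq2, 0.0063 with edgeR and 0.36 without the 4 samples, *Cnot8* had 0.27 with FPKM and 0.17 without the 4 samples, and single samples left out gave -0.38 to 0.36 for *Cnot4*, -0.16 to 0.063 for *Cnot6* and -0.27 to 0.17 for *Cnot8*. Under other settings 303 of 330 log2 fold changes of the subunits, and with single samples left out 279 of 300, kept their direction and their side of the threshold.

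Samples with the same number did not deviate together (correlations of -0.044 to 0.11 over 27 pairs, 1 of them above 0.1), so the numbers were not taken as pairs. With the sample number as a replicate block *Cnot4* had a log2 fold change of 0.77 (limma adjusted p = 3.26e-04), no count of called subunits changed, and all loci called between compartments were 4846 against 4831. The block left the ratio of *Cnot6* to *Cnot6l* past the threshold (exact sign flips, adjusted p = 0.00781). Counts over all tested loci depended more on the setting. Between compartments 3108 loci were called in control samples and 597 in *miR-92b* samples with only the compared groups in the model, against 1535 and 2071, and in Scr samples 399 without a filter and 1288 with DESeq2, against 805; single samples left out gave 850 to 1287, 975 to 2914 and 386 to 1052. For *miR-92b* against Scr DESeq2 called 176 loci in whole cell samples and 40 for the difference between compartments where limma called 1 each, and single samples left out gave 2 to 77 in whole cell and 0 to 49 in nuclear samples (limma 0). Against control in whole cell samples DESeq2 called 21 loci with *miR-92b* and 37 with Scr, against 1 and 0. Single samples left out gave up to 69 loci for Scr against control in nuclear samples (limma 0), up to 12 in whole cell samples (0) and up to 7 for *miR-92b* against control in whole cell samples (1). The remaining settings gave 0 to 6 loci in these comparisons.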
